A study of Mus musculus with 24 samples.

Results

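Left ventricles of Per2-/- mice and of wildtype mice were compared here without ischemia, in sham operated hearts. The comparison holds 6 of the 24 arrays of the study, 3 from Per2-/- sham hearts and 3 from wildtype sham hearts, chosen by the genotype and treatment in their labels. It covers 18820 genes, which are all those whose array probe set is paired with 1 gene symbol. The Per2-/- mice and the C57BL6 wildtype mice both came from the Jackson Laboratory, all animals were males of 12 to 16 weeks, and their hearts were taken at Zeitgeber time 0 under 14 hours of light and 10 hours of dark. Every animal was anesthetized and catheterized, and every heart was stitched and flushed with cold saline before harvest. The labels call the 6 hearts of this comparison untreated controls as well as sham operated, and give them no ischemia. The labels name the same strain for both genotypes. The sources used here do not say which exons the allele lacks or that the wildtype hearts of the arrays were from littermates. The other 18 arrays, used below as context, were hearts of both genotypes, 3 in each group. They had an ischemia of 30 minutes (I30), ischemic preconditioning in 4 cycles with 5 minutes for each ischemia and each reperfusion (IP0), or the 30 minutes of ischemia followed by reperfusion for 60 minutes (I30R60).

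Per2 encodes period 2, a repressor of the circadian clock. In the clock the transcription factors CLOCK and BMAL1 (gene Arntl), or NPAS2 in place of CLOCK, bind DNA motifs called E-boxes and switch on the Per and Cry genes, and the PER and CRY proteins return to the nucleus and shut off their activity. Per2 protein also binds nuclear receptors, among them PPAR-alpha and REV-ERB-alpha, and in the heart the clock is known for setting the daily course of fatty acid and glucose use.

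All values are log2 intensities of 1 probe set for each gene, so that a difference of 1 is a 2-fold difference, and the difference is always Per2-/- minus wildtype. Intensities of different genes were not set against each other, because probes differ in brightness. Groups were compared with limma, in which a gene was called at an adjusted p under 0.05 over all 18820 genes. The median standard error of a difference was 0.14, and the lowest correlation between 2 sham arrays of the same genotype was 0.992. In tissue samples, fewer cells of a type and less RNA in each cell cannot be told apart.

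The Per2 probe set had log2 intensities of 5.69, 5.65 and 5.63 in the 3 Per2-/- sham hearts, against 5.33, 5.94 and 6.10 in the 3 wildtype sham hearts. The groups overlapped, at a difference of -0.13 (standard error 0.27, adjusted p = 0.966, exact two-sided permutation p = 0.7, where 3 arrays against 3 cannot give less than 0.1). The sources used here give neither the part of the transcript that the probe set reads nor the exons that the allele lacks. This value therefore does not check the genotype in the labels. After I30 the same probe set had 5.30, 4.94 and 5.04 in Per2-/- hearts, against 6.44, 6.31 and 5.89 in wildtype hearts, without overlap. After IP0 and after I30R60 the genotypes overlapped.

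The sham hearts were uneven in transcripts of atrial muscle. Myl7, the regulatory myosin light chain of the atria, had log2 intensities of 3.09, 3.29 and 11.21 in Per2-/- sham hearts, against 8.24, 5.22 and 3.73 in wildtype sham hearts. Per2-/- sham replicate 3 was far above the others, wildtype sham replicate 1 was next, and the groups overlapped (difference 0.13, standard error 1.64, exact two-sided permutation p = 1). Myl4, the atrial essential light chain, had 6.62, 6.56 and 12.72 in Per2-/- sham hearts, against 10.73, 7.88 and 7.06 in wildtype sham hearts. The mean log2 level of 15 atrial genes lay between 6.45 and 8.49 in Per2-/- sham hearts, against 6.64 to 7.35 in wildtype sham hearts. Heart muscle itself was even. Tnni3, cardiac troponin I, had 13.18, 13.28 and 13.21 in Per2-/- sham hearts, against 13.27, 13.27 and 13.20 in wildtype sham hearts. Of the 15 lists of cell type markers, the atrial list was the only 1 with a called member, which was Myl1. Myl1 was highest in Per2-/- sham replicate 3 but did not follow Myl7 in the other hearts. It was 8.14 and 8.30 in the 2 Per2-/- sham hearts with low Myl7, against 7.66 in wildtype sham replicate 1. The part of atrial tissue in its call was not tested.

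**Figure D1:**
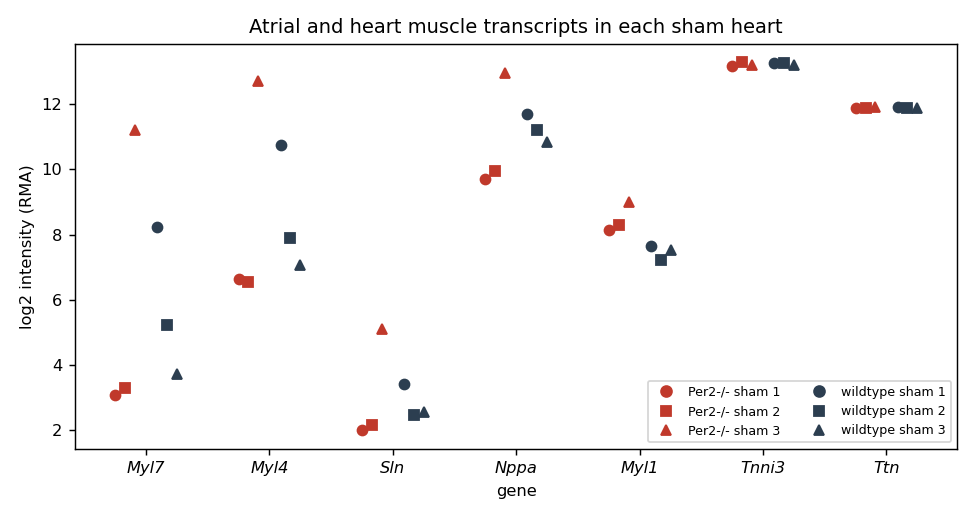
Log2 RMA intensity (vertical axis) of 5 transcripts of the atrial list, Myl1 included, and 2 general heart muscle transcripts in each of the 6 sham hearts. Per2-/- is in red to the left and wildtype in dark blue to the right of each gene, with a shape for each replicate. Per2-/- sham replicate 3 is at 11.21 for Myl7 and 12.72 for Myl4 and wildtype sham replicate 1 at 8.24 and 10.73, while Tnni3 and Ttn are nearly level in all 6 hearts.

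Of the 18820 genes, 50 were called (0.266% of all tested). Of these, 27 were higher in Per2-/- sham hearts (0.143%) and 23 were lower (0.122%). In each of the 50 genes the 3 Per2-/- arrays lay apart from the 3 wildtype arrays, which held for 14.3% of all genes (Per2-/- above in 8.35% and below in 5.96%). Sizes ran between 0.38 and 3.66 on the log2 scale with a median of 0.87, and 16 genes differed by at least 2-fold (0.085% of all tested), 10 of them higher and 6 lower. At an unadjusted p under 0.05 1388 genes passed (7.38%), of which 812 were higher (4.31%) and 576 lower (3.06%). The count depended on single hearts. It was 25 without Per2-/- sham replicate 1, 17 without Per2-/- sham replicate 2, 20 without wildtype sham replicate 1 and 21 without wildtype sham replicate 3. The 15 genes called in each of the 6 fits that left out 1 sham heart were Rcan2, Lgr6, Bcl2l13, Mcm6, Cmbl, Sema5a and Arpc5, which were lower, and Mme, Abat, Nnt, Snrpe, Mylk4, Wdfy1, Rab4a and Edn3, which were higher. Of the other called genes, 5 lost their call in 1 to 2 of these fits and 30 in 3 or more, Otud1 among the 30.

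With the log2 value of Myl7 in the model, 48 genes were called, 45 of them among the 50. The mean of Myl7 differed by only 0.13 between the genotypes, so that this term could hardly move a difference. Without Per2-/- sham replicate 3 and wildtype sham replicate 1, the 2 sham hearts with the most Myl7, 35 genes were called, 22 of the 50 were among them, and the 50 differences lay between 0.78 and 1.36 times their values with all hearts. Without all 4 arrays with high Myl7, which leaves 1 wildtype sham heart, 14 genes were called, 9 of them among the 50, and the 50 differences lay between 0.61 and 1.63 times their values with all hearts.

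The largest fall was in Rcan2, which encodes a regulator that binds calcineurin, the calcium-dependent phosphatase that activates NFAT factors in heart muscle. Rcan2 had log2 intensities of 5.96, 6.50 and 6.16 in Per2-/- sham hearts, against 9.88, 9.82 and 9.91 in wildtype sham hearts. The groups were far apart, with a difference of -3.66 (standard error 0.43, adjusted p = 0.000152) that made Rcan2 12.6-fold lower. Edn3, the vessel-acting peptide endothelin 3, showed the largest rise, with 6.98, 7.15 and 6.04 in Per2-/- sham hearts, against 5.11, 5.02 and 4.87 in wildtype sham hearts. Even the lowest Per2-/- heart, replicate 3, was above all wildtype hearts, and the mean was 3.30-fold higher (difference 1.72, standard error 0.24, adjusted p = 0.00136). Both genes belong to a list of 19 tested endothelin and calcineurin genes, in which these were the only 2 called and the median difference was 0.02, against 0.01 over all genes. Mme, which encodes neprilysin, a membrane peptidase that breaks down natriuretic peptides and endothelins, had 6.94, 6.80 and 6.81 in Per2-/- sham hearts, against 6.20, 6.16 and 5.98 in wildtype sham hearts. It was 1.66-fold higher in Per2-/- sham hearts (adjusted p = 0.00172).

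Lgr6, a receptor for the R-spondins that enhance Wnt signaling, had log2 intensities of 4.35, 4.63 and 4.86 in Per2-/- sham hearts, against 7.04, 7.40 and 7.20 in wildtype sham hearts. It was 6.08-fold lower (difference -2.60, standard error 0.19, adjusted p = 1.94e-07), and among 29 tested genes of R-spondin and Wnt signaling it was the only 1 called, with a median of -0.01 over the list. Fzd6, a Frizzled receptor for Wnt ligands that the list did not hold, had 6.28, 6.23 and 6.52 in Per2-/- sham hearts, against 7.21, 7.24 and 7.10 in wildtype sham hearts (1.79-fold lower, adjusted p = 0.0158). Sdc2, the heparan sulfate proteoglycan syndecan 2, was 1.87-fold lower and Sema5a, a semaphorin, 1.88-fold lower. Plxna4, a receptor subunit for other semaphorins, was 1.41-fold higher in Per2-/- sham hearts. Adgrd1, an adhesion G protein-coupled receptor, was 1.64-fold lower (adjusted p = 0.0299).

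Mitochondrial and metabolic genes were called in both directions. Bcl2l13, a BCL-2 family protein of the outer mitochondrial membrane that serves as a receptor for mitophagy, had log2 intensities of 7.66, 7.87 and 7.67 in Per2-/- sham hearts, against 8.89, 9.02 and 9.01 in wildtype sham hearts. The 2.36-fold lower level had the smallest p of the comparison (difference -1.24, standard error 0.09, adjusted p = 1.44e-07), and of 16 tested genes of the BCL-2 family and mitophagy no other was called. Nnt, the only called gene of 14 tested in mitochondrial redox balance and uncoupling and the inner membrane enzyme that uses the proton gradient to make NADPH, had 11.49, 11.53 and 11.36 in Per2-/- sham hearts, against 10.61, 10.61 and 10.48 in wildtype sham hearts. All Per2-/- hearts were above all wildtype hearts by more than the spread of either group, and Nnt was 1.86-fold higher (difference 0.90, standard error 0.08, adjusted p = 2.66e-06). A second, dimmer Nnt probe set differed by 0.10 (unadjusted p = 0.382). A mutated Nnt allele is known in one substrain of C57BL/6 mice. The sources used here do not give the substrain or the Nnt genotype of these animals, and their part in this difference was not tested. Abat, the enzyme that degrades the transmitter GABA in mitochondria, was 1.75-fold higher (adjusted p = 0.00136). None of 31 tested subunits of oxidative phosphorylation was called, and their median difference was -0.003.

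**Figure D2:**
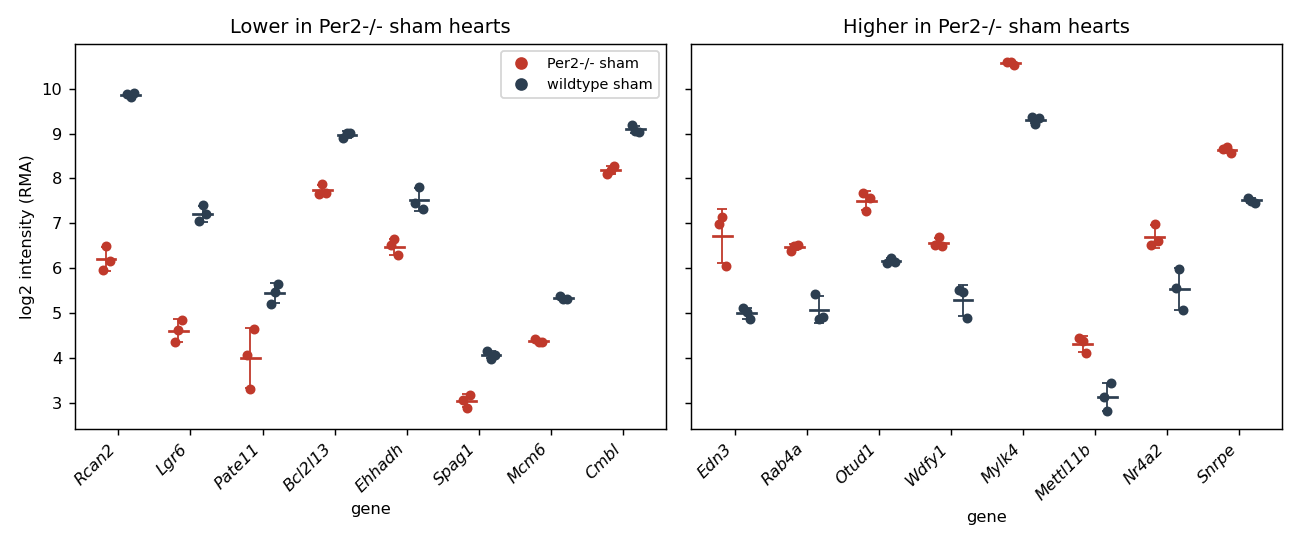
Log2 RMA intensity (vertical axis) of the 8 genes with the largest fall (left panel) and the 8 with the largest rise (right panel) in Per2-/- sham hearts, with Per2-/- arrays in red to the left and wildtype arrays in dark blue to the right of each gene. Points are single hearts, and bars show the mean and the SD of 3. The Per2-/- and wildtype points of each gene do not overlap, and the means differ by 3.66 for Rcan2 and 2.60 for Lgr6.

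Genes controlled by PPAR-alpha, the fatty acid receptor that switches on fat breakdown in the heart, included 2 called genes, both lower in Per2-/- sham hearts, among 27 tested (0.122% of all genes were called lower). At an unadjusted p under 0.05, 10 targets were lower and none was higher, against 3.06% and 4.31% of all genes. Of the 27, 7 differences lay above 0. In 13 targets all Per2-/- hearts were below all wildtype hearts and in 2 above them, against 5.96% and 8.35% of all genes. The median was -0.09, against 0.01 over all genes. The mean log2 level of the 27 targets lay between 9.36 and 9.39 in Per2-/- sham hearts, against 9.60 to 9.66 in wildtype sham hearts. Means of other lists were also lower in Per2-/- sham hearts without overlap. Fatty acid oxidation had 10.08 to 10.14 against 10.15 to 10.18, and sarcomere and calcium handling 11.09 to 11.18 against 11.22 to 11.28. The same held for endothelin and calcineurin genes and, by a narrow margin, for mitochondrial redox and uncoupling. Lists that lay the other way are given below. The first called target, Ehhadh, the bifunctional enzyme of fatty acid oxidation in peroxisomes, had log2 intensities of 6.51, 6.65 and 6.29 in Per2-/- sham hearts, against 7.45, 7.81 and 7.33 in wildtype sham hearts (2.07-fold lower, standard error 0.20 of a difference of -1.05, adjusted p = 0.0221). The second, Plin2, a protein that coats lipid droplets, had 9.16, 9.13 and 9.23 in Per2-/- sham hearts, against 9.77, 9.66 and 9.54 in wildtype sham hearts (1.40-fold lower, adjusted p = 0.0408). Neither gene overlapped between genotypes, though both calls were lost in each fit without 1 of the 6 sham hearts. Without Per2-/- sham replicate 3 and wildtype sham replicate 1 the median of the list was -0.07.

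Other PPAR-alpha targets were lower in every Per2-/- heart without passing the test. Acot1, a thioesterase that frees fatty acids from CoA, had log2 intensities of 4.70, 4.64 and 5.02 in Per2-/- sham hearts, against 5.38, 5.78 and 5.67 in wildtype sham hearts (adjusted p = 0.0691). Angptl4, a secreted inhibitor of lipoprotein lipase, had a difference of -1.12 (adjusted p = 0.394), and Ucp3, a mitochondrial carrier of muscle, one of -1.08 (adjusted p = 0.364). Pdk4, the kinase that shuts off pyruvate dehydrogenase and so the entry of glucose carbon into mitochondria, had 12.06, 11.84 and 11.57 in Per2-/- sham hearts, against 12.43, 12.57 and 12.42 in wildtype sham hearts, without overlap (adjusted p = 0.202). These 4 genes have the 4 largest differences of the list after Ehhadh is set aside. Of 25 tested genes of fatty acid oxidation Ehhadh was the only 1 called, with a median of -0.006. Cpt1b, Acadvl and Acsl1 were not tested. Hsd17b11, a dehydrogenase of lipid droplets in no list, was 1.55-fold lower (adjusted p = 0.0217). Among 31 genes of lipid storage and synthesis Plin2 alone was called, and Srebf1, a driver of fatty acid synthesis, had 6.04, 6.35 and 6.34 in Per2-/- sham hearts, against 6.84, 6.63 and 7.10 in wildtype sham hearts (adjusted p = 0.0679).

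In sugar metabolism 1 gene of the lists was called. Ppp1r3c, the subunit that carries protein phosphatase 1 to glycogen and promotes its synthesis, had log2 intensities of 9.23, 9.44 and 8.69 in Per2-/- sham hearts, against 8.40, 8.16 and 8.13 in wildtype sham hearts. It was 1.85-fold higher in Per2-/- sham hearts (difference 0.89, standard error 0.17, adjusted p = 0.0243), and the call was lost in 5 of the 6 fits without 1 sham heart. None of the other 18 tested glycogen genes and none of 25 tested genes of glycolysis and lactate was called. In that second list Pfkp, a phosphofructokinase, differed by -0.60 (adjusted p = 0.263) and Hk2, a hexokinase, by 0.27 (adjusted p = 0.359). Upp1, which splits uridine, was 1.69-fold lower (adjusted p = 0.0423).

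**Figure D3:**
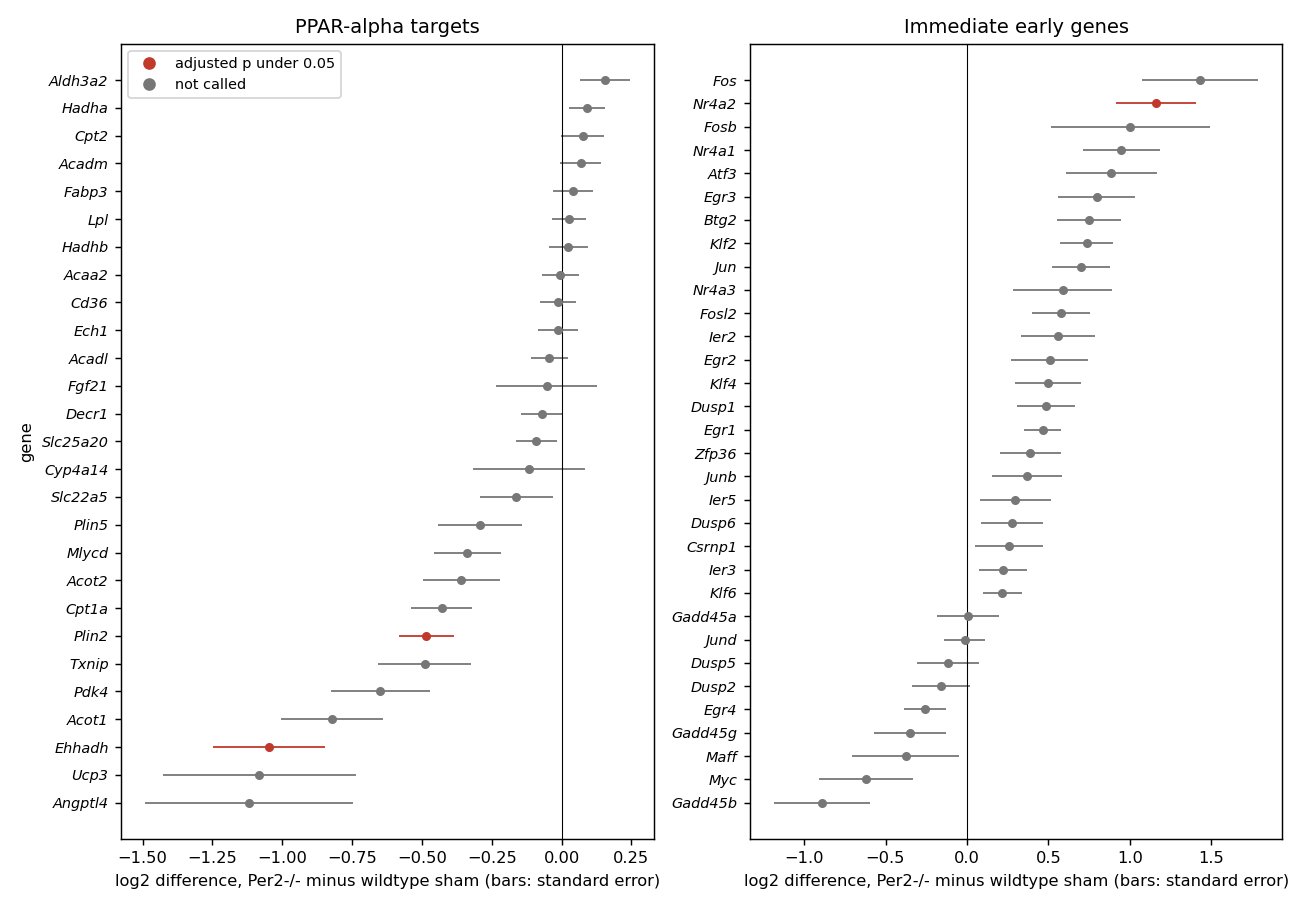
Log2 difference, Per2-/- minus wildtype sham hearts (horizontal axis), with its standard error, for the tested PPAR-alpha targets (left) and immediate early genes (right), with called genes in red. In the left panel 20 of 27 genes lie below 0 and Ehhadh and Plin2 are called, and in the right panel 24 of 32 lie above 0 and Nr4a2 is called.

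Contractile and signaling genes of heart muscle added further called genes. Mylk4, a myosin light chain kinase of striated muscle, had log2 intensities of 10.59, 10.59 and 10.53 in Per2-/- sham hearts, against 9.37, 9.22 and 9.34 in wildtype sham hearts. Its 3 Per2-/- values lay close together and above all wildtype values, and it was 2.39-fold higher (difference 1.26, standard error 0.17, adjusted p = 0.000726). Myl1, an essential light chain of myosin, had 8.14, 8.30 and 9.01 in Per2-/- sham hearts, against 7.66, 7.21 and 7.52 in wildtype sham hearts (2.03-fold higher, adjusted p = 0.037). The highest Myl1 value was in Per2-/- sham replicate 3, the heart with the most Myl7, and without that heart and wildtype sham replicate 1 the difference was 0.86 (adjusted p = 0.163). Of 30 sarcomere and calcium handling genes only Rcan2 was called. Zfpm2, a cofactor of GATA4 in heart development, was 1.57-fold higher, Prkcq, protein kinase C theta, 1.74-fold higher and Hdac4, a histone deacetylase that represses MEF2, 1.35-fold higher. None of 21 ion channel genes was called, with Scn4b, a sodium channel beta subunit, at a difference of 0.87 (adjusted p = 0.107).

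Rab4a, a GTPase of early endosomes, had log2 intensities of 6.39, 6.50 and 6.51 in Per2-/- sham hearts, against 5.42, 4.88 and 4.93 in wildtype sham hearts (2.62-fold higher, adjusted p = 0.00335). Wdfy1, which binds the phosphoinositide of early endosomes, had 6.52, 6.69 and 6.51 in Per2-/- sham hearts, against 5.51, 5.47 and 4.90 in wildtype sham hearts (2.43-fold higher, adjusted p = 0.000135). Snrpe, a core protein of spliceosomal snRNPs, had 8.66, 8.70 and 8.57 in Per2-/- sham hearts, against 7.58, 7.51 and 7.45 in wildtype sham hearts. The snRNP gene was 2.19-fold higher with a standard error of 0.09 (adjusted p = 1.03e-06), one of the most even differences of the comparison. Otud1, a deubiquitinase, was 2.53-fold higher (7.69, 7.27 and 7.56 in Per2-/- sham hearts, against 6.12, 6.24 and 6.14 in wildtype sham hearts, adjusted p = 0.0218). Cops8, a subunit of the COP9 signalosome that trims ubiquitin ligases, was 1.40-fold lower and Spsb4, a substrate adaptor of a ubiquitin ligase, 1.78-fold lower. Arpc5, a subunit of the actin-nucleating Arp2/3 complex, was 1.77-fold lower, while Cyfip2, of the WAVE complex that activates Arp2/3, was 1.30-fold higher.

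Of the called genes not described so far, Pate11, a small secreted protein of the PATE family, was 2.70-fold lower, with 4.08, 3.31 and 4.64 in Per2-/- sham hearts, against 5.21, 5.46 and 5.66 in wildtype sham hearts (adjusted p = 0.0425). Spag1, which helps to assemble dynein arms, Mcm6, of the replication helicase, Cmbl, a hydrolase, Aldh9a1, an aldehyde dehydrogenase of carnitine synthesis, Syne3, a nesprin, Laptm4b, a lysosomal membrane protein, Tsn, the nucleic acid binding protein translin, and Nop2, a ribosomal RNA methyltransferase, were lower by 1.32-fold to 2.04-fold. Mettl11b, an N-terminal methyltransferase, Tmem37, Mfsd4a, Slc17a7, a vesicular glutamate transporter, Meig1, Fam131a, Igsf1, Sh3rf2, Enpp5 and Lrtm1 were higher by 1.41-fold to 2.26-fold. Spag1 and Mettl11b had their highest sham values at 4.16 and 4.46, near or below the median of all values (4.44), and a filter on dim probe sets removed both. The files hold no detection calls, so that their folds of 2.04 and 2.26 are those of dim probe sets.

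The loop of the clock showed no called gene. Of 18 tested core clock genes, 9 lay above 0 and the median difference was 0.005. Npas2, the partner of BMAL1 that can stand in for CLOCK, had log2 intensities of 6.06, 5.56 and 5.37 in Per2-/- sham hearts, against 7.06, 6.33 and 6.36 in wildtype sham hearts. The groups did not overlap, yet the spread of this gene was wide over the 24 arrays and it did not pass the test (difference -0.92, standard error 0.40, unadjusted p = 0.0347, adjusted p = 0.622). Per1, the closest relative of Per2, had 8.21, 8.42 and 8.16 in Per2-/- sham hearts, against 7.81, 8.03 and 7.86 in wildtype sham hearts, again without overlap (difference 0.36, standard error 0.12, adjusted p = 0.365). Arntl had 6.34, 6.33 and 5.25 in Per2-/- sham hearts, against 6.65, 6.12 and 6.29 in wildtype sham hearts, so that its difference of -0.38 came with a low value in replicate 3 only (adjusted p = 0.913). Per3 differed by 0.33 (adjusted p = 0.92). In the remaining 13 members besides Per2, among them Clock, Cry1, Cry2, Nr1d2 and Ciart, differences lay between -0.13 and 0.20. Of 20 tested clock output genes none was called, and the largest difference was in Fkbp5, at -0.59 (adjusted p = 0.852), with Per2-/- sham replicate 3 at 5.37 and the other 5 hearts between 6.63 and 7.61.

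Immediate early genes, which cells switch on within minutes of stress, handling or stimulation, lay above 0 more often than not. Of 32 tested, 1 was called, 14 were higher and 2 lower at an unadjusted p under 0.05, and 24 had a difference above 0. The background shares were 4.31% and 3.06%. The median was 0.43, against 0.01 over all genes, and it lay between 0.26 and 0.58 when 1 sham heart was left out. The mean log2 level of the list was 7.45, 7.43 and 6.93 in Per2-/- sham hearts, against 6.94, 7.13 and 6.67 in wildtype sham hearts. The groups overlapped, since Per2-/- sham replicate 3 was below wildtype sham replicates 1 and 2. Nr4a2, an orphan nuclear receptor of this class, had log2 intensities of 6.52, 6.99 and 6.61 in Per2-/- sham hearts, against 5.57, 5.99 and 5.06 in wildtype sham hearts (2.24-fold higher, adjusted p = 0.0475), a call that was lost in 5 of the 6 fits without 1 sham heart. Fos, a subunit of AP-1, had 7.93, 8.19 and 7.21 in Per2-/- sham hearts, against 6.56, 7.28 and 5.20 in wildtype sham hearts, with a slight overlap (difference 1.43, adjusted p = 0.134). Nr4a1, a second orphan receptor, had 10.08, 10.26 and 9.79 in Per2-/- sham hearts, against 9.09, 9.44 and 8.76 in wildtype sham hearts (difference 0.95, adjusted p = 0.137). In all 3 genes wildtype sham replicate 3 was the lowest heart and Per2-/- sham replicate 2 the highest. Gadd45b went the other way, at -0.89 (adjusted p = 0.389). The time between anesthesia and harvest of each heart was not given in the sources used here, and its part was not tested.

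None of 30 inflammation genes was called and none passed an unadjusted p under 0.05. Ccl3, a chemokine of immune cells, had the widest spread, with 7.04, 6.51 and 4.15 in Per2-/- sham hearts, against 7.11, 7.59 and 5.94 in wildtype sham hearts. Interferon response (28 tested), hypoxia response (20), heat shock (15) and heart muscle microRNA genes (16) had no called member. The mean log2 level of 13 neutrophil markers lay between 3.29 and 3.63 in Per2-/- sham hearts, against 3.75 to 3.79 in wildtype sham hearts. No member was called or passed an unadjusted p under 0.05, and these means lie below the median of all values (4.44). Means of other dim marker lists did not overlap either, in the other direction. Lung epithelium had 2.89 to 3.08 against 2.68 to 2.85, and neuron and Schwann cell 3.78 to 3.88 against 3.63 to 3.77.

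Promoters of called genes were searched for the E-box CACGTG, which reads the same on both strands. The windows were those of the RefSeq annotation of GRCm38.p6, from 250 bases before to 50 bases after the start of a gene, and 37 of the 50 called genes had at least 1. The motif was in 8 of their 47 promoters (17.0%), against 7.15% of all 32851 promoters, and these were the promoters of Arpc5, Cops8, Nop2 and Plin2, which were lower, and of Meig1, Mfsd4a, Otud1 and Ppp1r3c, which were higher. Among 23 promoters of the core clock list 4 held it (17.4%), and among 37 of the immediate early gene list 8 (21.6%). Those below are shown because their genes are the metabolic and ubiquitin genes described above, written from 5′ to 3′ along the gene with the E-box in capitals. The E-box begins 104 bases before the start in Ppp1r3c, 54 bases before it in Otud1, where it overlaps a TGACG motif, and 4 bases before it in Plin2.
Ppp1r3c, chr19:36736555-36736854, minus strand: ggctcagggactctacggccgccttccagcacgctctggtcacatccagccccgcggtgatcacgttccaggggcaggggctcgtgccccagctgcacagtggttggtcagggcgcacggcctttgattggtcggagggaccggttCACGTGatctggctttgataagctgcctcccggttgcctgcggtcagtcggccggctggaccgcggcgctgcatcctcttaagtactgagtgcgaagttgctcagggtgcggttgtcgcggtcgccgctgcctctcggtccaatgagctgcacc
Otud1, chr2:19657481-19657780, plus strand: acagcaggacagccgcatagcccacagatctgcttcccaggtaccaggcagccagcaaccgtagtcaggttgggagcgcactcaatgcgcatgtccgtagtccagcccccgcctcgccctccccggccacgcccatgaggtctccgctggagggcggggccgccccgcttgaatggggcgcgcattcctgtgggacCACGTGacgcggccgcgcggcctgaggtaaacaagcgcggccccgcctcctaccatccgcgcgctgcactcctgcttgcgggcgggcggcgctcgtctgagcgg
Plin2, chr4:86670010-86670309, minus strand: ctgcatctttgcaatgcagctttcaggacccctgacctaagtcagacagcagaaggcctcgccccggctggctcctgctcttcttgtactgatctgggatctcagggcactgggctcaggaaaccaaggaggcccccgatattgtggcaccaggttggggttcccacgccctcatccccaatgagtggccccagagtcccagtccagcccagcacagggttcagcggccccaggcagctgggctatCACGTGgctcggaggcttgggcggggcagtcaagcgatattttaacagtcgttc
A match is a description of these letters and says nothing of what binds there.

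The promoter of Nr4a2 is shown as that of the called immediate early gene. TGACG, the core of the cyclic AMP response element TGACGTCA, was searched on both strands and stood in 62.2% of 37 promoters of the immediate early gene list, against 20.8% of all promoters and 31.9% of the promoters of called genes. The capitals mark its 4 matches in Nr4a2, and those on the other strand read CGTCA.
Nr4a2, chr2:57123954-57124253, minus strand: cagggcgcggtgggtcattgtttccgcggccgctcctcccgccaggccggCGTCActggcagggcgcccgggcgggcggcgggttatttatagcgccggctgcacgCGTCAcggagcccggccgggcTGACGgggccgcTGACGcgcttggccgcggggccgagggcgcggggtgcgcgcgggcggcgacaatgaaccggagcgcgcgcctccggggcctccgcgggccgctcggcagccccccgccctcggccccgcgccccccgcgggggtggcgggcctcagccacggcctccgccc

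The called genes were unevenly placed in the genome. Chromosome 1, which carries Per2, held 13 of the 50, that is 26% (95% exact binomial interval 14.6 to 40.3), against 5.64% of all genes tested. The interval treats the 50 genes as independent draws. They were called in the same 6 hearts and some lie near each other, so that it does not measure the spread between animals. Of the 13, 7 were higher and 6 lower. In the order of tested genes they ran from Myl1, 168 genes before Per2, to Aldh9a1, 369 genes after it. That stretch, bounded by the called genes themselves and so marked out after the values were seen, held 538 of the 1061 tested genes of the chromosome. Within 50 tested genes of Per2 on either side 2 genes were called, Cops8 (1.40-fold lower) and Hdac4 (1.35-fold higher), and 5 were called among the 200 genes that lay more than 100 and up to 200 genes away, Lgr6 and Snrpe included. The genotype at Per2 and that of the DNA near it cannot be told apart in these animals.

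Chromosome 15 held 7 called genes of 713 tested. All 7 lay within 48 consecutive tested genes, a stretch likewise bounded by the called genes after the values were seen. In their order Cmbl, Sema5a, Sdc2, Laptm4b, Spag1 and Fzd6 were lower and Zfpm2 was higher. The call of Laptm4b was lost in each of the 6 fits without 1 sham heart. A second, dimmer Laptm4b probe set differed by -0.15 (limma on all probe sets, unadjusted p = 0.577). Sema5a and Sdc2 were next to each other in the order of tested genes, as were Rcan2 and Enpp5 on chromosome 17, where Rcan2 was lower and Enpp5 1.44-fold higher. On the chromosomes other than 1 and 15, 30 of 17031 genes were called (0.176%).

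**Figure D4:**
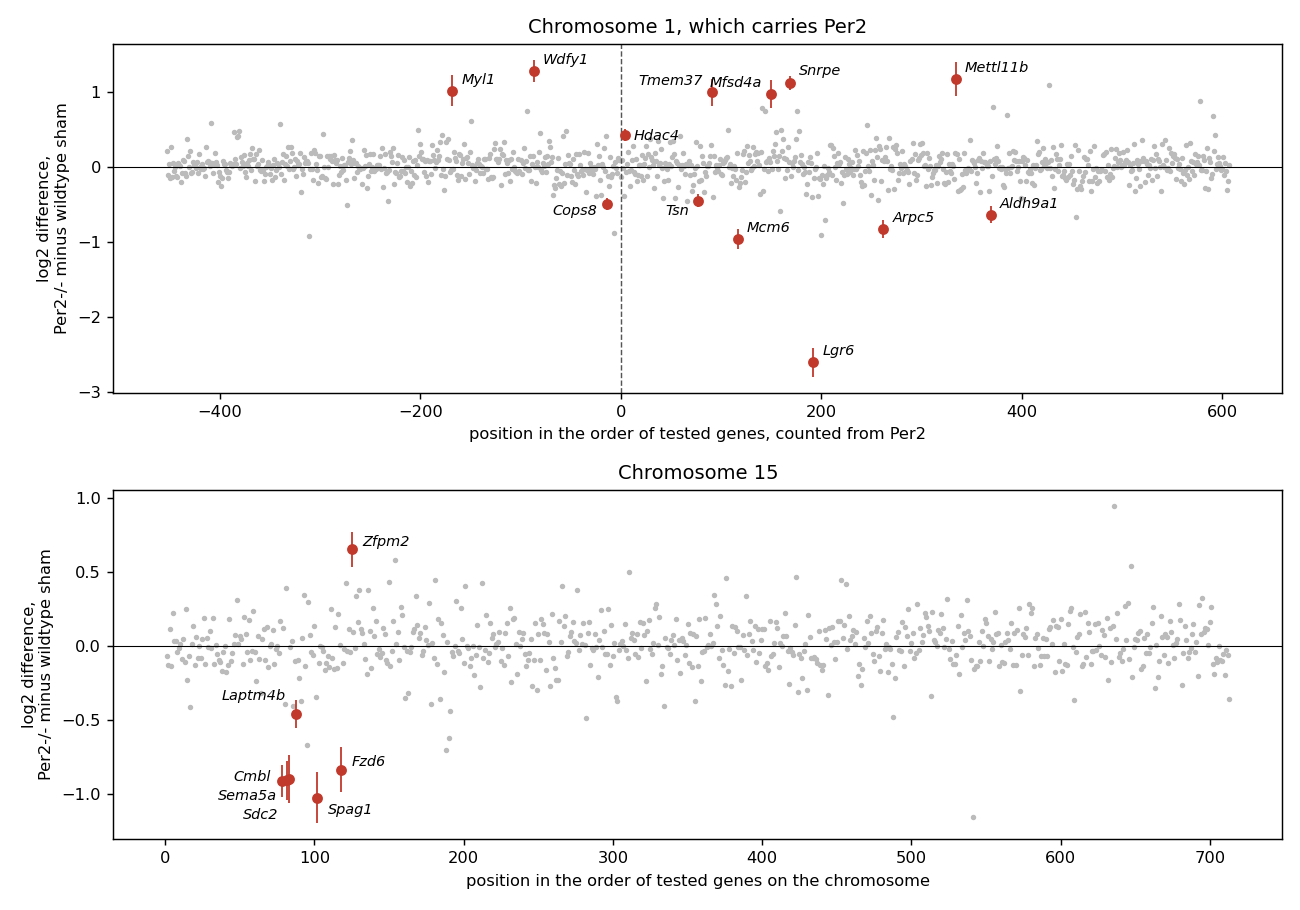
Log2 difference, Per2-/- minus wildtype sham hearts (vertical axis), of the tested genes of chromosome 1 and chromosome 15 in their order along the chromosome (horizontal axis, in genes, counted from Per2 in the upper panel), with called genes in red and their standard errors. On chromosome 1 the 13 called genes lie between 168 genes before and 369 genes after Per2, and on chromosome 15 the 7 called genes lie within 48 consecutive genes.

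The same 50 genes were then followed in the other treatments, whose hearts the sham comparison had not used except for the estimate of spread. Of the 50, 44 had the same sign after I30, 44 after IP0 and 46 after I30R60. After I30, 24 were called in the same direction, which is 48% of the 50 and 19.2% of the 125 genes called there (0.664% of all tested). After IP0 it was 13, or 26% of the 50 and 86.7% of the 15 genes called there (0.0797%). After I30R60 it was 16, or 32% of the 50 and 48.5% of the 33 called there (0.175%). None was called in the opposite direction.

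In each of the 4 treatments 11 genes passed the test with an unchanged direction. These were Rcan2, Lgr6, Bcl2l13, Cmbl, Sdc2 and Cops8, which were lower, and Nnt, Tmem37, Snrpe, Wdfy1 and Edn3, which were higher. Lgr6 differed by -2.61 after I30, -2.22 after IP0 and -2.68 after I30R60, beside -2.60 in sham hearts. Nnt differed by 1.06, 1.00 and 0.91 after the same treatments, beside 0.90 in sham hearts. Rcan2 differed by -3.46, -2.57 and -3.84, beside -3.66 in sham hearts. Of these 11 genes 5 lie on chromosome 1 and 2 on chromosome 15.

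Another 23 genes were called in sham hearts alone, 17 of them on chromosomes other than 1 and 15. The difference between treatments in the size of the genotype effect was tested as an interaction, and with limma no gene passed an adjusted p under 0.05 for any of the 3 treatments. At an unadjusted p under 0.05 it was 17, 25 and 17 of the 50 for I30, IP0 and I30R60, against 7.10%, 4.81% and 5.49% of all genes. That a gene was called in sham hearts only is therefore not shown to be a difference between treatments, and these interactions share the sham hearts in which the 50 were called.

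In several of these genes the wildtype sham hearts stood apart from all other hearts of the study. For 10 of the 50 genes the 3 wildtype sham arrays lay outside the range of the other 21 arrays, above it for Ehhadh, Plin2, Hsd17b11, Aldh9a1 and Nop2 and below it for Ppp1r3c, Mylk4, Otud1, Zfpm2 and Hdac4. That is 20% of the called genes, against 0.595% of all genes. For none of the 50 did the 3 Per2-/- sham arrays lie outside the other 21. Only 0.128% of all genes did so, so that none among 50 says little about those hearts. The 50 were called for a difference between those groups, so that the shares are given without a test. Ehhadh lay between 5.53 and 6.67 in the 18 hearts of the other treatments, a range that holds the Per2-/- sham hearts (6.29 to 6.65) and not the wildtype sham hearts (7.33 to 7.81). Plin2 lay between 8.86 and 9.47 in those 18 hearts, which holds the 9.13 to 9.23 of Per2-/- sham hearts and not the 9.54 to 9.77 of wildtype sham hearts. Ppp1r3c, in turn, lay between 8.86 and 9.93 in the 18 hearts, with Per2-/- sham hearts at 8.69 to 9.44 and wildtype sham hearts at 8.13 to 8.40.

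**Figure D5:**
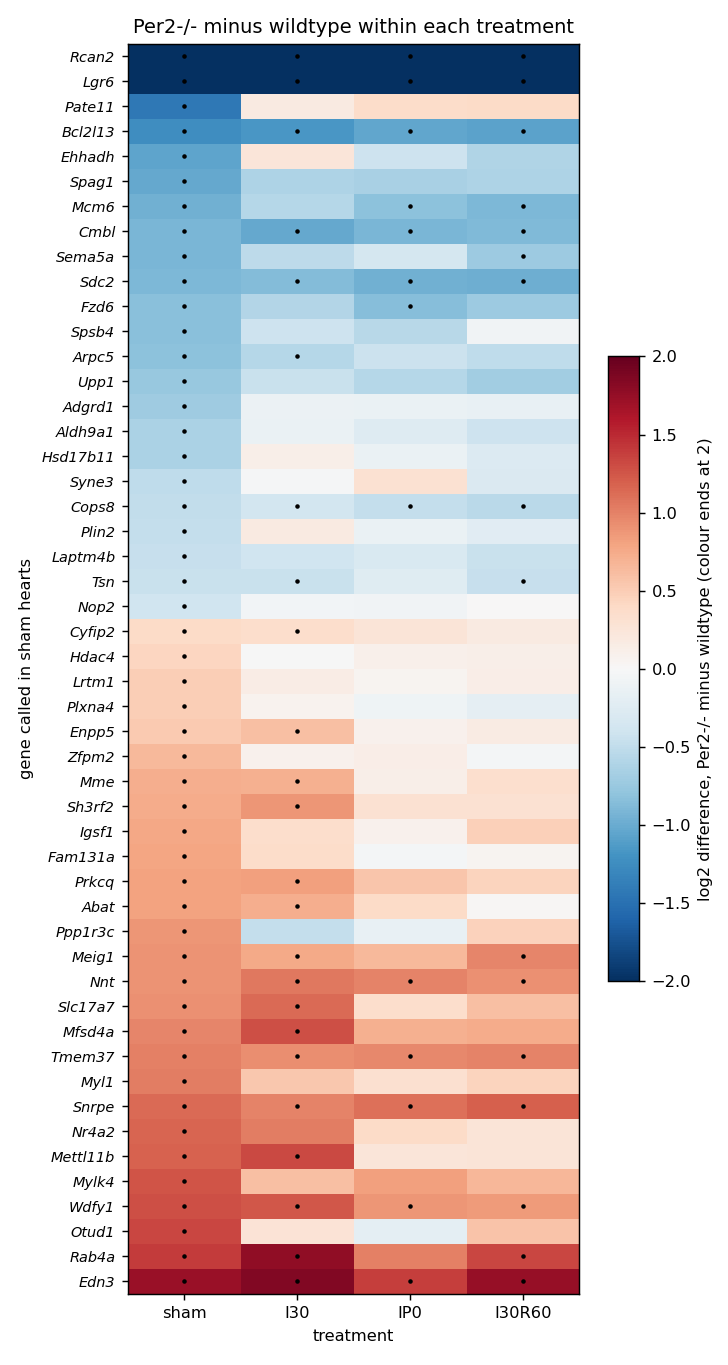
Log2 difference, Per2-/- minus wildtype (colour, which ends at 2 in either direction), of the 50 genes called in sham hearts (rows) within each of the 4 treatments (columns), where a dot marks an adjusted p under 0.05. Rcan2, Lgr6, Bcl2l13 and Edn3 keep their colour in all 4 columns, while Ehhadh, Plin2 and Ppp1r3c are marked in sham hearts alone.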

How the data were processed

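Left ventricular RNA of 6 sham hearts, 3 Per2-/- and 3 wildtype, was measured within a study of 24 Affymetrix Mouse Gene 1.1 ST arrays (the series text names version 2.1), 1 mouse per array. As deposited, each probe set has a log2 intensity, which the authors obtained with RMA in Partek Genomics Suite 6.6. The values carry no detection calls, and RMA evens out the distributions of the arrays. A genome build and an annotation version are not given in the sources used here. No array was left out, and 3 arrays a group limit the precision.

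Of 35555 probe sets, 21218 are paired with 1 symbol and were used. For 1386 genes with several probe sets the brightest on average over the 24 arrays was kept, which left 18820 genes. Gene order was taken from RefSeq GRCm38.p6, in which 18805 genes matched. The genotypes were tested in limma 3.58.1 (R 4.3.3) by a model of 8 group means fitted to all 24 arrays, which leaves 16 residual degrees of freedom, using default moderation and Benjamini-Hochberg adjustment over the genes tested. The test was checked on simulated data with independent noise for each gene and array. Those data held no variation shared by arrays of the same replicate number and no hearts rich in atrial transcripts. Tables and permutation tests used Python 3.11.15, pandas 2.3.3 and scipy 1.17.1.

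The 37 gene lists and the genes compared were chosen with earlier results of these data known, so that no list is independent evidence. The lists are described by counts and medians, without a set test. The genes named were Per2, the atrial and core clock lists, the called genes, called members of the lists and up to 4 further members of each list with the largest differences. The second probe sets of Nnt and Laptm4b and the stretch of chromosome 15 were picked out after the values were seen. Alternatives covered the arrays and options of the model, scaling, filters, probe sets, thresholds, Myl7 and each sham array left out. A replicate number was not taken to pair arrays.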

Additional observations from a re-analysis of the deposited data

Results flagged for a closer look

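A signal was found outside the genes compared. Probe sets with several symbols in the annotation, or with none listed, were left out of the comparison of genes. When all probe sets of the arrays were tested together, 44 were called, and 8 of these were of that kind. The 3 with several symbols were 2 probe sets shared by Gal3st2, Gal3st2b and Gal3st2c, sulfotransferases of sugar chains, which were lower in Per2-/- sham hearts by 1.39 and 1.22 on the log2 scale (adjusted p = 0.0014 and 0.00647), and 1 shared by Srp54a, Srp54b and Srp54c, of the signal recognition particle, which was higher by 0.38 (adjusted p = 0.0252). The first Gal3st2 probe set had log2 intensities of 3.00, 2.80 and 2.78 in Per2-/- sham hearts, against 4.37, 4.29 and 4.10 in wildtype sham hearts, without overlap. Of the 5 that are not listed, 2 were higher and 3 lower.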

How the results depend on the processing

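In all 50 called genes the sham genotypes did not overlap, so that leaving out hearts could not turn a sign, and the direction is no sign of stability. The filter on dim probe sets gave no value for Spag1 and Mettl11b. The count of calls was 13 with the 6 sham arrays alone (12 of them among the 50), 100 with array weights, 14 without the 4 arrays with high Myl7, and 16 with a fold of 2 or more as a further condition. The Student t-test on the 6 sham arrays called 0 genes after adjustment and 1450 at an unadjusted p under 0.05, against 50 and 1388 with limma. With 1 sham heart left out, the count lay between 17 and 51, the lowest without Per2-/- sham replicate 2. The share of called genes on chromosome 1 was 20% to 37.5% over the alternatives. The difference in Per2 lay between -0.36 and 0.022 when 1 sham heart was left out. That in Myl7 was -0.95 with array weights, -1.29 without the 2 and -0.54 without the 4 arrays with high Myl7, and -2.54 to 1.52 when 1 sham heart was left out. The median of immediate early genes was 0.70 without the 4 arrays, and that of core clock genes 0.056 without the 2 arrays and 0.0028 to 0.072 when 1 sham heart was left out. The causes were not tested.

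Arrays of the same replicate number were not taken as pairs: the deviations of sham arrays of 1 number from their group means correlated by -0.0577, 0.109 and 0.0127. With replicate number as a block, 53 genes were called, 45 of them among the 50. Over all groups, deviations of arrays with the same number correlated by 0.0203 on average, against -0.0101 for different numbers. Yet the best correlated array of another group had the same number for 19 of the 24 arrays. Each group holds only 1 array of a given number among its 3. Arrays of 1 number may thus share variation for which the main fit has no term, and its source was not tested.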

Other observations

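For 3 genes a probe set that was not used, because another of the gene was brighter, was called when all probe sets were tested. For Ppp1r12b, a subunit of myosin phosphatase on chromosome 1, that probe set had log2 intensities of 8.92, 9.04 and 8.96 in Per2-/- sham hearts, against 8.0, 7.73 and 7.90 in wildtype sham hearts (difference 1.1, adjusted p = 3.86e-05). The brighter Ppp1r12b probe set had 10.73, 10.68 and 10.77 in Per2-/- sham hearts, against 10.69, 10.65 and 10.66 in wildtype sham hearts, and differed by 0.06 (adjusted p = 0.937). For Ankrd33b, on chromosome 15, the dimmer probe set differed by -1.04 (adjusted p = 0.0396) and the brighter by -0.002. For Setd6 the dimmer probe set differed by -0.78 (adjusted p = 0.0417) and the brighter by 0.06.

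Nppa, which encodes atrial natriuretic peptide, had log2 intensities of 9.70, 9.96 and 12.97 in Per2-/- sham hearts, against 11.71, 11.22 and 10.84 in wildtype sham hearts. The 2 Per2-/- hearts with low Myl7 were below all wildtype sham hearts, and the Per2-/- heart with high Myl7 was above them. The difference of -0.38 did not pass the test (adjusted p = 0.959).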
